A study of Mus musculus with 12 samples.

Results

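The connexin genes Gja4, Gja5, Gja1, Gjc1, Gjb2 and Gjb5 were followed across 12 tumour RNA-seq libraries. They were found by gene name, 6 of the 43698 rows of the count table. The set was selected on measured values: Gja4 was high in tumours given an antibody-catalyst conjugate, so levels with and without the conjugate chose the set and are given as a description. A list of 20 mouse connexin genes gives the background of the family.

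Tumours of MC38, a colon carcinoma line of mouse, had been raised subcutaneously in the left flank of C57BL/6J mice aged 8 weeks. There were 6 groups of 2 libraries, all from day 20 after inoculation. Dosing began on day 9 and was repeated every 3 days. Ctrl mice received PBS. DOX mice received doxorubicin, a DNA-damaging anthracycline, at 14 µg (0.56 mg/kg), and DPD mice the same mass of DPD, read from the study's title as a doxorubicin prodrug. RP mice received Ru-PD-L1, an antibody-catalyst conjugate directed at the checkpoint ligand PD-L1, at 20 µg (0.80 mg/kg). These single agents were injected into the peritoneum. In the combinations the drug was given beside the tumour at 14 µg, 6 hours after the conjugate. The label R+X was taken to mean the conjugate with DOX, and R+D the conjugate with DPD. If R+X and R+D were exchanged, their levels would change places. The differences that pair them with DOX and DPD would then be other than those given. The conjugate dose in the combinations is not given in the sources used here, and the route of the drug differed from that of the single agents. Nothing in the labels says that libraries of one group are from different mice. The p-values here therefore reflect only how far these libraries differ, which could be technical.

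Connexins are membrane proteins that assemble as hexamers into hemichannels. Hemichannels of neighbouring cells dock into gap junctions, through which ions and small messengers pass. Connexin 37 (Gja4), connexin 40 (Gja5), connexin 43 (Gja1) and connexin 45 (Gjc1) are the classical connexins of the vessel wall. Connexin 37 and connexin 40 are best known from arterial endothelium, connexin 43 is also widespread in fibroblasts and muscle layers, and connexin 45 is found in smooth muscle and the conduction system of the heart. Connexin 26 (Gjb2) and connexin 31.1 (Gjb5) are beta connexins of epithelia and skin. In bulk tumour RNA, fewer cells of a type and less RNA per cell cannot be told apart.

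Gja4 and Gjb5 both lie on chromosome 4 of GRCm38, on the minus strand. Gja4 (ENSMUSG00000050234.7) spans chr4:127311421-127314039 and Gjb5 (ENSMUSG00000042357.2) chr4:127354809-127358181. Gja5 lies on chromosome 3, Gja1 on chromosome 10, Gjc1 on chromosome 11 and Gjb2 on chromosome 14.

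The 250 bases before the RefSeq start of Gja4 and Gjb5 are shown because these genes lie on one chromosome and were high in the same groups, and those of Gja5 because it is the usual endothelial partner of Gja4. Coordinates are GRCm38.p6, and each is printed 5′ to 3′ on the gene's own strand. Gja4 covers chr4:127314040-127314289 on the minus strand, Gjb5 chr4:127358165-127358414 on the minus strand and Gja5 chr3:97032152-97032401 on the plus strand. Capitals mark motif matches.
Gja4: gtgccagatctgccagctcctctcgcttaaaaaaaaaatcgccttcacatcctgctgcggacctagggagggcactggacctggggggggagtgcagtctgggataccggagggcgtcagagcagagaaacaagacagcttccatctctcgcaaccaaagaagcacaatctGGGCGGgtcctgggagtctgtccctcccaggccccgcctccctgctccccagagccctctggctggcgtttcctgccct
Gjb5: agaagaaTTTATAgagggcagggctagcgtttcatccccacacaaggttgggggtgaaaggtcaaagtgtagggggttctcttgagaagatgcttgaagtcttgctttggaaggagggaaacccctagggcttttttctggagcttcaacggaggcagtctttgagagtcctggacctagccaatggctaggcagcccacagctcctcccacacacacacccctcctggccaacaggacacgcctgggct
Gja5: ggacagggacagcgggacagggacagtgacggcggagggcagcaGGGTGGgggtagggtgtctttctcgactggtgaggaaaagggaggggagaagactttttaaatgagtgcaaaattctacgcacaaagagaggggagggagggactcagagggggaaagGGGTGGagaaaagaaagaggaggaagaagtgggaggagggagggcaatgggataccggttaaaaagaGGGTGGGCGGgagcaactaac
Short motifs, 5 in all, were searched on both strands in these windows and in 32851 RefSeq windows of the same length. The GC box (GGGCGG), found in 32.7% of all windows, occurred once in Gja4, from 79 to 74 bases before the start. Gja5 held 1 GC box and 3 copies of the CACCC box of Krüppel-like factors (CCACCC), which occurs in 28.1% of windows. Its last CACCC box overlaps the GC box. The TATA box letters (TATAAA), present in 12.4% of windows, occurred in Gjb5 from 243 to 238 bases before the start. The interferon-gamma-activated sequence (TTCNNNGAA, 7.02% of windows) and the core of the interferon-stimulated response element (GAAA, any 2 bases, GAAA; 2.98%) had no match in the windows of Gja4, Gja5, Gja1, Gjb2 or Gjb5. These are matches of letters only. RefSeq sequences were found for 5 of the 6 members.

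Library totals ran from 46547114 to 56462259 counts, and levels are CPM, counts scaled to library size with TMM. All 6 members passed the filter on low counts, but Gjb2 did so on very uneven values. The endothelial markers Pecam1 and Cdh5 were well detected in every library, whereas the epithelial list, markers of the colon epithelium from which the line was derived, summed to only 11 to 19.9 CPM, with 1 of its 11 genes at 0 in every library and 6 passing the filter. The 12 skeletal muscle genes summed to 266 and 100.5 CPM in RP and to 27.4 and 354 CPM in R+D, against 11 to 28.7 CPM in the other 4 groups. R+D replicate 2 and both RP replicates thus stood apart in these genes.

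Gja4, which forms connexin 37 channels, stood at 7.57 and 7.13 CPM in Ctrl, 5.95 and 4.19 in DOX, and 9.15 and 12.8 in DPD. With the conjugate it stood at 40.2 and 31.7 CPM in RP, 23.3 and 28.2 in R+D, and 10.1 and 6.56 in R+X. The 4 RP and R+D libraries lay above all 8 others, and R+X lay among the groups without conjugate. The order of group means was RP, R+D, DPD, R+X, Ctrl and DOX. The ranges of R+X and DPD overlapped, as did those of R+X and Ctrl, while the other neighbours in that order did not. RP against Ctrl gave a log2 difference of 2.29 ± 0.28 (SE), a fold of 4.89, R+D against DPD 1.23 ± 0.27 and R+X against DOX 0.72 ± 0.27. These values chose the gene and carry no test. Over all genes, 3 of 19525 (0.0154%) passed an adjusted p of 0.05 in RP against Ctrl by edgeR's quasi-likelihood test with Benjamini-Hochberg adjustment, and nothing is read from that comparison for Gja4.

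**Figure D1:**
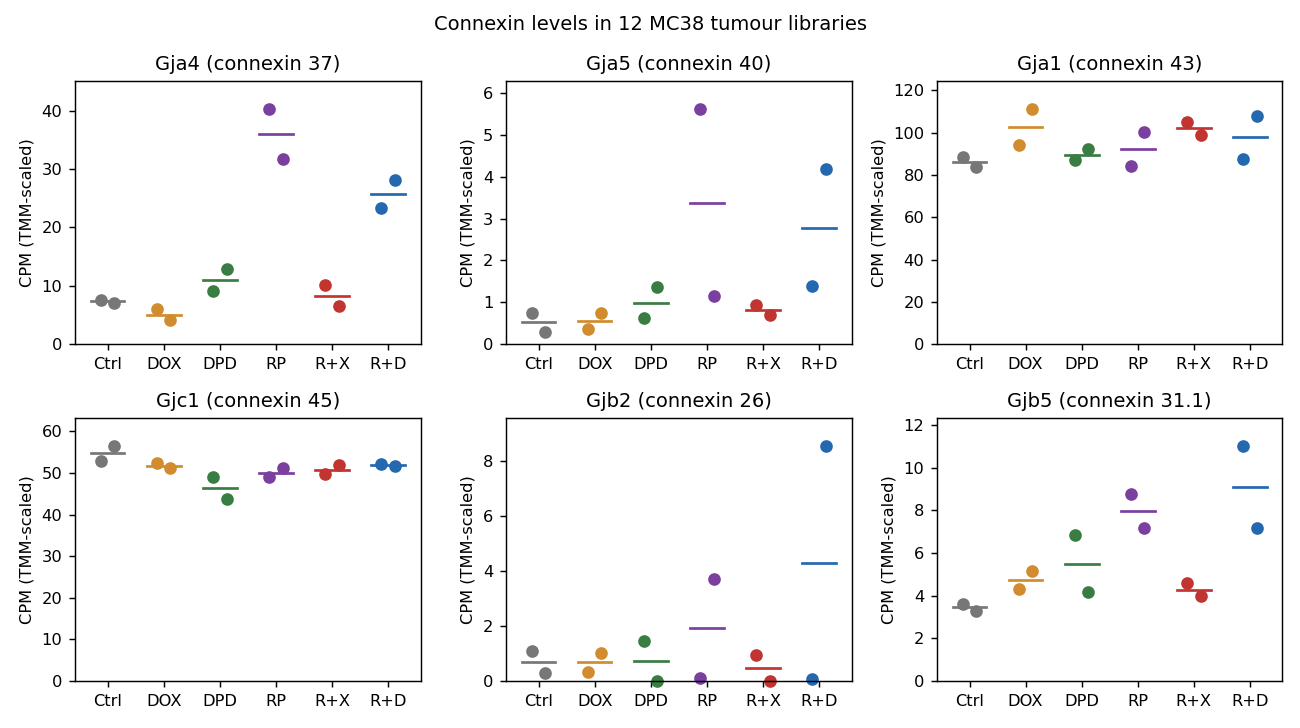
Level (CPM, linear axis from 0) of each of the 6 connexin genes in the 12 libraries. Points are libraries and bars are means of 2. Gja4 sits between 23.3 and 40.2 CPM in RP and R+D and at most at 12.8 CPM elsewhere, while Gja1 and Gjc1 vary little.

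The 2 drugs were compared with and without the conjugate. With the conjugate, Gja4 was 3.08-fold higher in R+D than in R+X, a log2 difference of 1.62 ± 0.27 (SE), with both R+D libraries above both R+X libraries. The high Gja4 of R+D belongs to the levels that chose the set, so this difference is a description and carries no test. Without the conjugate, DPD exceeded DOX by 1.11 ± 0.27, 2.17-fold, with both DPD libraries above both DOX libraries. No conjugate library enters that comparison, although its libraries were the baseline of the rise with the conjugate. Its adjusted p was 0.979 in edgeR and 0.254 in DESeq2, so the difference did not pass. The conjugate added 0.51 ± 0.38 more on the log2 scale beside DPD than beside DOX, again given without a test.

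Leaving out R+D replicate 2, rich in muscle transcripts, left a log2 difference of 1.47 from R+X for Gja4. R+D replicate 1 held 23.3 CPM of Gja4, above all 8 libraries outside RP and R+D, with its muscle genes at the level of Ctrl. Leaving out RP replicate 1 left 2.07 for RP against Ctrl, and leaving out RP replicate 2 gave 2.44. The part of the muscle transcripts in the RP value was not tested, since both RP libraries held them.

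Gjb5, the gene of the epithelial connexin 31.1, stood at 3.61 and 3.30 CPM in Ctrl, 4.30 and 5.14 in DOX and 6.84 and 4.15 in DPD. It stood at 8.75 and 7.18 CPM in RP, 4.57 and 4.00 in R+X and 11 and 7.15 in R+D. The 4 RP and R+D libraries again lay above all 8 others, with a fold of 2.31 for RP against Ctrl. The log2 difference was 1.02 without RP replicate 1 and 1.33 without RP replicate 2. This split, chosen after seeing Gja4, was shared by 2 of the 6 members, Gja4 and Gjb5, and by 2.63% of all genes tested. In R+D against R+X the log2 difference of Gjb5 was 1.08 ± 0.30 (unadjusted p 0.00417, adjusted p 0.843 in edgeR). It fell short of the adjusted threshold in each tested comparison by edgeR, as did every other connexin tested.

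In R+X against DOX the Gjb5 groups overlapped and the log2 difference was -0.14 ± 0.30, against 0.72 ± 0.27 for Gja4. In R+D against DPD it was 0.73 ± 0.29, against 1.23 ± 0.27. These contrasts are set side by side without a test. Within groups, deviations of Gjb5 and Gja4 had r = -0.38 over the 12 libraries, against r = 0.75 for their levels over the same libraries.

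Gja5, connexin 40, stood at 0.746 and 0.302 CPM in Ctrl, 0.375 and 0.749 in DOX, and 0.625 and 1.36 in DPD. It stood at 5.61 and 1.14 CPM in RP, 0.931 and 0.708 in R+X, and 1.40 and 4.17 in R+D. Only RP replicate 1 and R+D replicate 2 were clearly high, and those are the libraries with the highest skeletal muscle sums. RP against Ctrl was a log2 difference of 2.67 ± 0.83, which became 1.07 without RP replicate 1 and 3.39 without RP replicate 2. R+D against R+X was 1.76 ± 0.79 (unadjusted p 0.0497, adjusted p 0.942 in edgeR) and became 0.76 without R+D replicate 2. Its counts were low, from 13 to 298 per library, and per length it was 0.263 CPM per kb against 9.24 for Gja4. The part of the muscle transcripts in the Gja5 values was not tested.

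Gja1 (connexin 43) and Gjc1 (connexin 45), the other classical vascular members, varied little. Gja1 ran from 84.0 to 111 CPM over the 12 libraries, and Gjc1 from 43.7 to 56.5 CPM. Their highest library was 1.32 and 1.29 times their lowest, against 9.60 times for Gja4. The R+D against R+X differences were -0.06 ± 0.16 for Gja1 and 0.03 ± 0.13 for Gjc1 on the log2 scale, with intervals of -0.42 to 0.29 and -0.26 to 0.33. Per kb of exon, Gjc1 (10.2 CPM), Gja1 (9.28) and Gja4 (9.24) had similar averages over all libraries. In RP the Gja4 level was 21.3 ± 3.6 CPM per kb (SD, n = 2), above Gja1 at 9.0 ± 1.08. In Ctrl the order was the opposite, 4.36 ± 0.19 for Gja4 and 8.40 ± 0.31 for Gja1.

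Gjb2, connexin 26 of skin and epithelia, had 413 counts in R+D replicate 2 and 224 in RP replicate 2. The other libraries held 0 to 79 counts, with 2 at 0 and 3 at most at 3 counts. R+D replicates were 8.53 and 0.0551 CPM, so no group difference can be read. Gjb6, its neighbour gene on chromosome 14, was similarly scattered, with 6 libraries at 0 and at most 33 counts. Skin keratinocyte genes summed to 320 to 557 CPM, with RP replicate 2 highest, but Krt14 alone averaged 329 to 385 CPM by group. R+D replicate 2, with the most Gjb2, summed to 448 CPM. The mean log2 CPM of these genes was 3.29 in RP replicate 2, 1.88 in DPD replicate 1 and 1.24 in R+X replicate 1. In Ctrl replicate 1, DOX replicate 2 and R+D replicate 2 it was 1.06, 1.01 and 1.00. In the other libraries it was below 0. The libraries above 0 were those with any Gjb6 counts. They held 45 to 413 counts of Gjb2, against 0 to 15 in the others. The part of skin transcripts in the Gjb2 values was not tested.

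Over the comparisons, the members' non-overlapping groups were set beside the share of all tested genes. In RP against Ctrl, Gja4, Gja5 and Gjb5 lay above without overlap, 3 of 6, where 32.3% of genes did, and Gjc1 lay below, where 27.1% did. In R+D against DPD 4 of 6 lay above (14.5% of genes), in R+X against DOX 1 of 6 (15.3%), and in R+D against R+X 3 of 6 (22.5%). With unadjusted p under 0.05 in R+D against R+X were Gja5 and Gjb5, 2 of the 5 members other than Gja4, where 5.27% of genes were. In R+X against RP, Gja5 and Gjb5 were below that p (8.68% of genes), and Gja4, Gja5 and Gjb5 lay below RP without overlap (23.7%). In DPD against DOX it was Gja4 alone (4.29%), and in DPD against Ctrl Gjb5 alone (4.02%). In DPD against DOX, Gja4 lay above without overlap (13.4%) and Gja1 and Gjc1 below (10.4%). In DPD against Ctrl, Gja4 and Gjb5 lay above (20.4%) and Gjc1 below (17.6%). In DOX against Ctrl, Gja1 and Gjb5 lay above (8.29%) and Gja4 and Gjc1 below (9.43%). In R+D against RP, Gjc1 lay above (14.2%) and Gja4 below (13.6%). None of the 5 members other than Gja4 was under an unadjusted p of 0.05 in DOX against Ctrl (2.08%) or R+D against RP (2.73%) or in the difference of conjugate effects (2.12%). No member tested passed the adjusted threshold in any drug comparison by edgeR, where 0 of 19525 genes did in each.

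**Figure D2:**
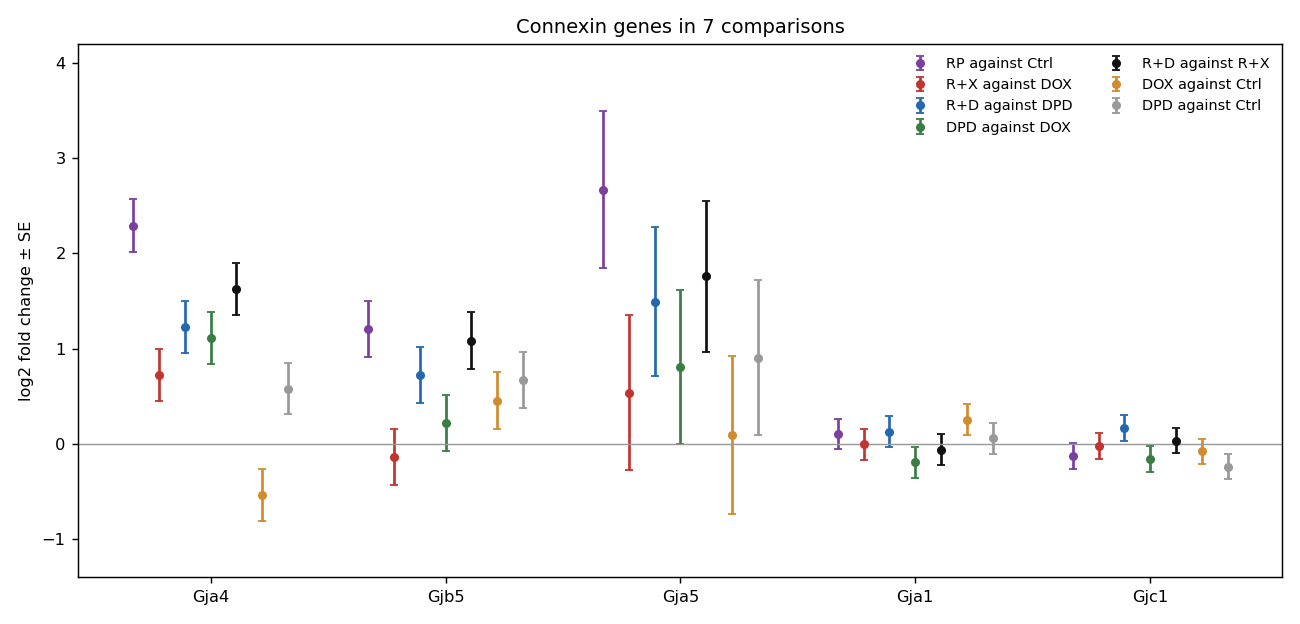
Log2 fold change with its standard error (bars, from the edgeR fit) of 5 members in 7 comparisons, without the unevenly detected Gjb2. Gja4 and Gjb5 lie higher in R+D than in R+X by 1.62 and 1.08, and Gja1 and Gjc1 stay near 0.

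Of the 20 connexin genes, 10 passed the filter, and 10 never exceeded 20 counts in a library, with Gja10 at 0 in all. Of those that passed, 8 of 10 had a positive log2 difference in RP against Ctrl, with a median of 1.29 against 0.06 over all genes, and 8 of 10 in R+D against R+X, with a median of 1.08. The R+D against R+X median over all genes was 0.004. In R+X against DOX 3 of 10 were positive. These counts are a description, since the family was selected on Gja4 and Gjb6 passed the filter with 6 libraries at 0. Ccn3, a secreted protein reported to bind connexin 43, stood at 41.4 and 9.20 CPM in RP, 15.7 and 10.7 in R+D and 2.92 and 1.86 in R+X, and at 3.26 and 2.18 in Ctrl and 1.65 and 1.28 in DOX. In DPD it stood at 3.56 and 14.1 CPM, so DPD replicate 2 exceeded RP replicate 2 and R+D replicate 2 and Ccn3 did not share the split of Gja4. Panx1, a pannexin channel, and the scaffold gene Tjp1 differed from Ctrl in RP by -0.07 ± 0.14 and 0.41 ± 0.34.

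Gja4 was set against endothelial RNA by dividing its counts by those of Pecam1 (CD31, an adhesion molecule) and Cdh5 (VE-cadherin, of endothelial junctions) in the same library. Pecam1 itself was higher in RP, at 47.3 and 35.0 CPM, than in all other libraries, at 20.7 to 27.9 CPM. Cdh5 was 30.5 and 24.4 CPM in RP and 17.3 to 25.1 CPM elsewhere. R+D thus held Pecam1 and Cdh5 within the range of the groups without conjugate while its Gja4 was high. Gja4 relative to Pecam1 was 0.305 and 0.345 in Ctrl, 0.236 and 0.174 in DOX and 0.370 and 0.459 in DPD. It was 0.850 and 0.904 in RP, 0.970 and 1.01 in R+D, and 0.406 and 0.275 in R+X. The 4 RP and R+D libraries therefore held about as many Gja4 as Pecam1 counts, and the 8 others at most 0.459. RP against Ctrl was 2.70-fold in this ratio and 3.49-fold relative to Cdh5, and R+D against DPD 2.40-fold and 2.91-fold. With the summed counts of 18 endothelial genes as denominator, RP against Ctrl was 3.31-fold.

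**Figure D3:**
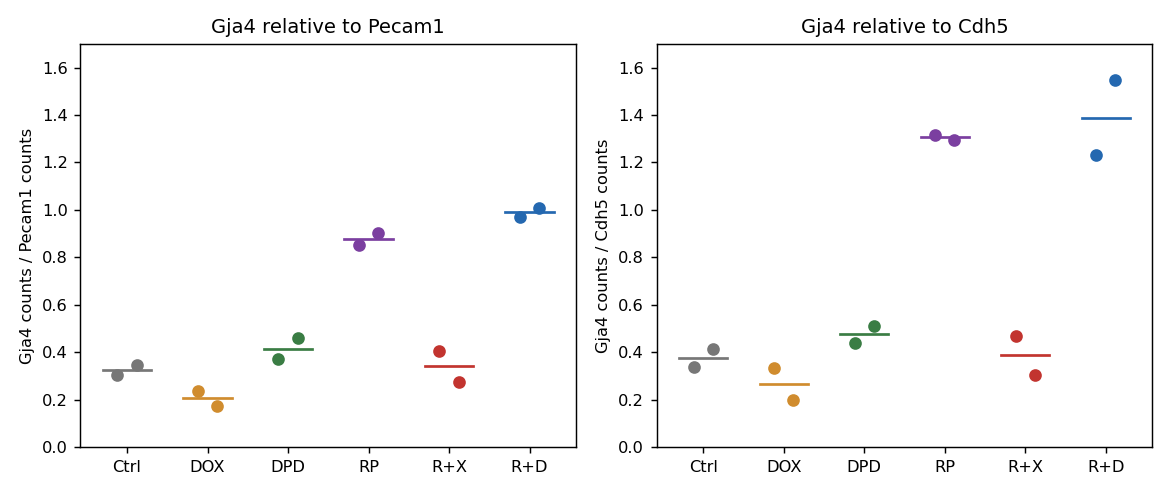
Counts of Gja4 divided by counts of Pecam1 (left) and Cdh5 (right) in each library, on linear axes from 0. Points are libraries and bars are means of 2. RP and R+D lie at 0.850 to 1.01 for Pecam1, and the other 8 libraries at or below 0.459.

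Whether libraries of a group that held more endothelial RNA also held more of a connexin was tested on deviations from group means. All 64 exchanges of the 2 libraries within groups were enumerated, which cannot give a p below 0.03125. Gja4 deviated with Pecam1 in 6 of 6 groups (r = 0.64, exact p = 0.03125, adjusted p = 0.225 over 12 relations). With Cdh5 it had r = 0.23 (exact permutation p = 0.469). Gja5 followed Pecam1 with r = 0.91 and Gjc1 ran opposite to Cdh5 with r = -0.82, each with an exact p of 0.0938 and an adjusted p of 0.225. Gjc1 with Pecam1 had r = -0.68 (exact permutation p = 0.0625, adjusted p = 0.225). For Gja5 with Cdh5 the r was 0.79 (exact permutation p = 0.0938, adjusted p = 0.225). None of the 12 relations passed the adjusted threshold. After adjustment over 12 relations, 1 relation at the smallest possible p could not pass alone, so nothing is read from this.

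Genes with the pattern most like that of Gja4 were ranked by Pearson r of log2 CPM over the 12 libraries among 13135 genes of at least 1 CPM on average. The points share libraries and groups, so r is a measure of likeness and carries no p. Rasal3, a Ras GTPase-activating protein of blood cells, came first with r = 0.97. Mcm10 (DNA replication), Uba7 (the ISG15-activating enzyme), Tspyl3, Samhd1 (a dNTP hydrolase), Ankle1 and 4 rows of Ubd (ubiquitin D, whose reads the 4 copies of its name may share) followed. Within groups alone, Omp, Zbp1, Mcm10, Phf19 and Lime1 were most alike, with Omp at r = 0.96. Gja5 ranked 439 (r = 0.82), Gjb5 815, Pecam1 846 and Cdh5 2950.

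The interferon gamma response list, 10 genes that include Irf1 and Gbp2, had the same 4 highest and the same 4 lowest libraries as Gja4, in another order within each 4. The 4 highest were the RP and R+D libraries, and 2.63% of all genes tested had these above the 8 others. The mural and skeletal muscle lists shared 3 of the 4 highest and 3 of the 4 lowest with Gja4, and the endothelial list 2 and 3. The interferon list summed to 2094 and 2446 CPM in RP, 1582 and 1722 in R+D and 1214 and 826 in R+X. In Ctrl and DOX the sum was 795 to 983 CPM, and in DPD 1197 and 1419. The median r of the interferon genes with Gja4 was 0.89, beside -0.08 for all genes ranked. It was 0.85 for skeletal muscle, 0.73 for leukocyte, 0.68 for fibroblast and 0.65 for arterial and Notch genes. Endothelial genes had 0.55, mural genes 0.53, skin keratinocyte genes 0.08, venous genes 0.01 and shear-responsive genes -0.24. All 18 endothelial genes had a positive difference in RP against Ctrl, with a median of 0.55, and 13 of 18 in R+D against R+X, with a median of 0.10. Over all genes these medians were 0.06 and 0.004. The part of these lists in the Gja4 values was not tested. None of the interferon motifs searched was found in the 250-base window of Gja4 printed above, which says only that these letters are not there.

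**Figure D4:**
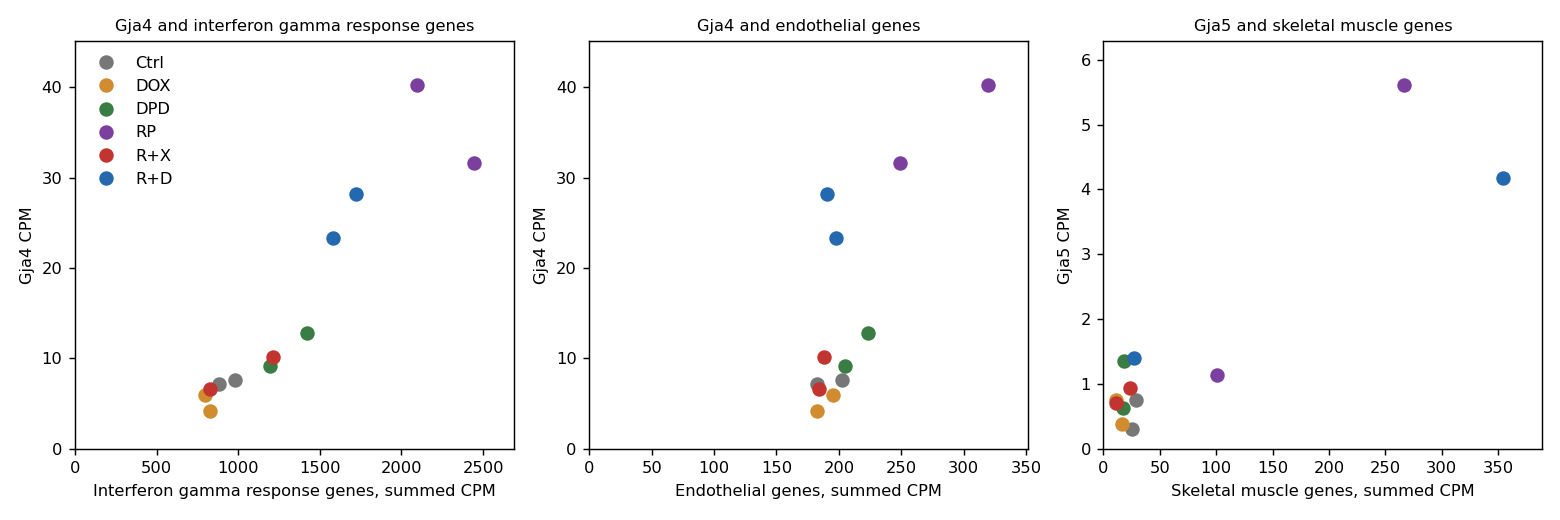
Gja4 CPM against the summed CPM of 10 interferon gamma response genes (left) and 18 endothelial genes (middle), and Gja5 CPM against 12 skeletal muscle genes (right), by library on linear axes. Points are libraries coloured by group. R+D holds high Gja4 (23.3 and 28.2 CPM) at endothelial sums like those of Ctrl, and the highest Gja5 libraries have the highest muscle sums.

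Arterial and shear genes were looked at because connexin 37 and connexin 40 mark arterial endothelium. Which cells held these transcripts is not known from bulk RNA. By group, Klf2 averaged 358 to 588 CPM, Klf4 433 to 583 and Ephb4 93.6 to 117, against 22.8 to 41.2 for Pecam1. The lists below are therefore not read as measures of vessel cells alone. Over all genes tested the median log2 difference was 0.06 in RP against Ctrl and 0.004 in R+D against R+X. The share of all genes with a positive difference is not given here, so the counts of positive genes are a description. Of 16 tested arterial and Notch genes, 14 had a positive difference in RP against Ctrl (median 0.61), among them Cxcl12 (a chemokine, 1.56 ± 0.33) and Sema3g (a semaphorin, 3.81 ± 0.71), while Efnb2, an arterial ephrin, was at -0.60 ± 0.29. In R+D against R+X 12 of 16 were positive, with a median of 0.23, and none passed the test. Of 5 shear-responsive genes, 1 was positive in RP against Ctrl (median -0.10): Thbd (thrombomodulin) was at 0.69 ± 0.26 and the flow-responsive factor Klf2 at -0.71 ± 0.25. Of 7 venous genes, 5 were positive (median 1.76), among them Aplnr (1.76 ± 0.33) and Vwf (1.16 ± 0.32), while Nr2f2 and Ephb4 were at -0.35 ± 0.14 and -0.12 ± 0.14. Of the 12 mural genes, 9 were positive (median 0.35). Myh11, a smooth muscle myosin, was at 3.55 ± 0.97 and Rgs5 at 1.85 ± 0.45, while the pericyte receptor gene Pdgfrb was at -0.15 ± 0.17. Rgs5 had the order of group means of Gja4, as did Myh11 and, outside the mural list, Uba7 and Samhd1. The share of all genes with this order was not counted. Rgs5 averaged 35.1 ± 13.5 CPM (SD, n = 2) in RP, 24.9 ± 14.0 in R+D and 16.9 ± 9.68 in DPD. In R+X, Ctrl and DOX it averaged 11.1, 9.69 and 6.67 CPM. Pdgfrb was lowest in RP (109 CPM) and highest in DOX (162 CPM). Over the 12 libraries, r of mural genes with Gja4 ran from -0.65 to 0.92, with a median of 0.53. The part of mural cells in the Gja4 values was not tested.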

How the data were processed

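Per the labels' protocols, RNA came from TRIzol extracts and the library kit was NEBNext Ultra. The submitters' processing notes name HISAT2 2.1.0, StringTie 1.3.5 and DESeq2 with build GRCm38. The role of each tool is not given in the sources used here, nor are the annotation and strand setting. The authors deposited raw counts per gene, and each of the 12 per-library files equalled its column. No strand use is stated, so overlapping genes cannot be told apart. The members and gene lists were chosen with earlier results of these data known. One edgeR 4.0.16 quasi-likelihood fit in R 4.3.3 held all 12 libraries in 6 groups (TMM, filterByExpr, 19525 genes, 6 residual degrees of freedom), with Benjamini-Hochberg adjusted p under 0.05 as the threshold and standard errors from the same test. Totals were 46547114 to 56462259 counts. Ratios added 0.5 counts, and log2 CPM a prior count of 2. Contrasts of the conjugate carry no test for the members, and for Gja4 neither do drug contrasts that include conjugate libraries or Ctrl. Named genes were the 6 members, Pecam1, Cdh5, other tested connexins, the 10 most like Gja4 over 12 libraries and 5 within groups, and up to 4 by level and 2 by unadjusted p of each of 14 lists. Some of these are not reported here. Alternatives were scaling by RLE, leaving the filter out, DESeq2 1.42.0, only the 2 groups compared, each library left out in turn, another denominator and another pseudocount. The edgeR script was tested on simulated data.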

Additional observations from a re-analysis of the deposited data

How the results depend on the processing

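No paired analysis was possible because the labels number no replicates, so the numbers used here only name libraries. With 3 genes in RP against Ctrl, 0 in the other pairs and 3 in the conjugate average by edgeR, no low-count filter gave 14 in RP against Ctrl, 13 in the average, 5 in R+X against RP and 1 in DOX and in DPD against Ctrl. DESeq2 gave 1124 in RP against Ctrl, 905 in the average, 311 in R+X against RP, 41 in R+D against R+X, 8 in DPD against DOX, 6 in R+D against RP and against DPD, 4 in DPD against Ctrl, 3 in the difference of conjugate effects and 1 in DOX against Ctrl and R+X against DOX. Fitting only the 2 groups gave 505 in RP against Ctrl, 3 in R+D against DPD, 2 in DOX against Ctrl and 1 in DPD against DOX, R+X against RP and R+D against RP. The endothelial list as denominator moved the log2 ratio of Gja4 in RP against Ctrl from 1.43 to 1.73. The cause was not tested.

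Leaving out 1 library gave 0 to 1 genes in RP against Ctrl, 0 to 3233 in the average (3233 without DOX replicate 2), 0 to 7 in R+X against RP and 0 to 1 in each other comparison. The Gja4 ratio to Pecam1 in R+X against DOX ran from 0.44 to 1.00 and that to Cdh5 from 0.19 to 0.93; to Cdh5 in R+D against DPD it was 1.38 to 1.71. Gja4 itself kept its direction in all of these. Among contrasts of the conjugate, directions turned for Gja1 in RP against Ctrl (-0.041 to 0.181) and R+X against DOX (-0.119 to 0.115). Gja1 also turned in R+D against DPD (-0.038 to 0.248). Gjc1 turned in R+X against DOX (-0.0707 to 0.0018) and the average (-0.0397 to 0.0316). Gjb2 turned in RP against Ctrl (-2.63 to 2.65), R+X against DOX (-8.13 to 0.476) and R+D against DPD (-3.68 to 10.76). Gjb2 turned in the average too. Turns in the other comparisons follow. Directions turned for Gja5 in DOX against Ctrl (-0.49 to 0.90), R+D against RP (-1.26 to 1.3) and the difference of conjugate effects (-0.041 to 1.60); for Gjb5 in DPD against DOX (-0.19 to 0.53) and R+D against RP (-0.16 to 0.48); for Gja1 in R+D against RP (-0.059 to 0.23), R+D against R+X (-0.23 to 0.058) and the difference of conjugate effects (-0.023 to 0.26); and for Gjc1 in R+D against R+X (-0.018 to 0.054). Gjb2, with 2 libraries at 0, turned in DOX against Ctrl (-1.09 to 1.16), DPD against Ctrl (-8.17 to 1.27), DPD against DOX (-8.10 to 1.13), R+X against RP (-9.59 to 2.01), R+D against RP (-5.03 to 5.20), R+D against R+X (-3.02 to 10.76) and the difference of conjugate effects (-3.12 to 11.30). Leaving out 1 group, within-group r turned for Gja1 with Cdh5 (-0.19 to 0.43) and Pecam1 (-0.41 to 0.55), Gjb5 with Cdh5 (-0.10 to 0.56) and Pecam1 (-0.58 to 0.057), and Gjb2 with Pecam1 (-0.48 to 0.29). Libraries of like depth held 413 and 3 counts of Gjb2 in R+D and 298 and 69 of Gja5 in RP, so the spread between 2 libraries limits these values.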
